A study of Mus musculus with 6 samples.

Results

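The constitutive proteasome subunits and regulators were followed in GC-2spd cells under hypoxia, as the levels of 45 mRNAs. The members were chosen by name: every gene symbol made of Psm, a letter from a to g and a number, without the immunoproteasome subunits Psmb8, Psmb9 and Psmb10 and without pseudogenes. No measured value entered this rule. It found 45 of the 43412 annotated genes, and they comprise 16 core particle genes, 17 cap genes and 12 regulators. Of these, 43 had a mean of at least 1 TPM (a level scaled for transcript length and for the total of the library) over the 6 libraries and were tested.

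GC-2spd is an immortalized mouse line derived from spermatocytes, labelled with the C57BL/6J background and with testis as its tissue. The hypoxia-treated group was held at 37 degrees Celsius in a workstation with 1% O2 (balanced with 94% N2), and the normoxic group stayed in an incubator at 21% O2, both under 5% CO2. All cells grew in DMEM with 10% fetal bovine serum, penicillin and streptomycin. Each group has 3 poly(A) RNA libraries, sequenced in pairs on an Illumina NovaSeq, and although the study states in general that experiments were repeated, no source says that these libraries came from separate cultures, so that p-values measure only the spread between these libraries. The time at 1% O2 before RNA was taken for these libraries is not given in the sources used here, and 48 h is given for several other assays of the study.

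The proteasome is the protease complex that degrades ubiquitin-tagged proteins in the cytosol and the nucleus. Its core particle is a barrel of outer alpha rings, which gate the entrance, and inner beta rings, which hold the proteolytic sites. The cap, or regulatory particle, sits on the barrel's end: the base unfolds substrates with a ring of ATPases and the lid removes ubiquitin chains. Other complexes, the activators, can bind the barrel in place of the cap, and dedicated chaperones build the rings. In the testis, germ cells use variants of some of these parts, among them Psma8 and the activator Psme4.

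The libraries held 5.797 to 6.722 aligned gigabases in hypoxia-treated cells and 5.747 to 6.614 in normoxic cells. Mitochondrially encoded genes took 5.55% ± 0.058 of the TPM in hypoxia-treated cells and 9.27% ± 0.022 in normoxic cells (SD, n = 3 each). All 8 hypoxia response genes listed for this purpose were higher in hypoxia-treated cells, for example Vegfa with a mean of 598 TPM, against 157 TPM in normoxic cells. The labelled cell type was not borne out by its markers: all 9 markers of germ cells and spermatocytes stayed under 1 TPM in every library (highest value 0.604 TPM), as did all 5 spermatid markers. Of the 5 fibroblast genes listed, Col1a1, Col1a2 and Fn1 stood at 1719.6, 1138 and 1064 TPM in hypoxia-treated cells and at 1161, 1123 and 758 TPM in normoxic cells, whereas Pdgfrb had 1.45 TPM in hypoxia-treated cells and 6.62 TPM in normoxic cells, and Col3a1 had 0.908 TPM in hypoxia-treated cells and 1.34 TPM in normoxic cells. Of the 5 Sertoli genes, 2 were under 1 TPM in every library, and Gata4 had 33.8 TPM in hypoxia-treated cells and 39.9 TPM in normoxic cells. Sox9 had 13.3 TPM in hypoxia-treated cells and 6.41 TPM in normoxic cells. The 5 Leydig genes reached at most 9.10 TPM and the 3 macrophage and 3 endothelial genes at most 1.80 TPM, with Ptprc, Adgre1 and Cdh5 listed at 0. The part of these cell types in the results was not tested.

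Proteasome mRNAs were lower in hypoxia-treated cells as compared to the normoxic group. Of the 43 tested members, 35 were lower (81.4%), 1 was higher (Psmd8, a subunit of the lid) and 7 did not pass the test, which was limma on log2(TPM + 1) with an adjusted p under 0.05. Over all 13749 tested genes, 36.1% were lower and 17.9% were higher by the same rule, or 54% in either direction. The 3 hypoxia-treated libraries all lay below the 3 normoxic libraries for 35 members, against 41% of all tested genes, and all above them for 1 member, against 21.4%. In bulk RNA, fewer cells of a type and less RNA per cell cannot be told apart.

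The median log2 fold change (hypoxia over normoxia) was -0.39 over the members, with quartiles of -0.59 and -0.27, and it was -0.13 over all tested genes, with quartiles of -0.44 and 0.17. The median of the members minus that of all genes was -0.25. Below that median were 36 of the 43 members, 17 lay below the lower quartile of all genes and 1 lay above the upper quartile. With median-ratio scaling the median of all genes was 0.0014 and the same difference was -0.24. There 27 members were lower and 3 higher, against 26.3% and 26.2% of all genes. After quantile normalization the difference was -0.38, with 32 members lower and 1 higher, against 26.5% and 26.0% of all genes. Of all calls, 33.1% were higher with TPM as deposited (2463 higher, 4967 lower), against 49.9% with median-ratio scaling (3603 higher, 3622 lower) and 49.6% after quantile normalization. With the mitochondrially encoded genes removed and TPM rescaled, 36 members were lower and 1 was higher, against 38.9% and 16.5% of all genes. The median of all genes was then -0.16, and that of the members minus it was -0.26.

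**Figure D1:**
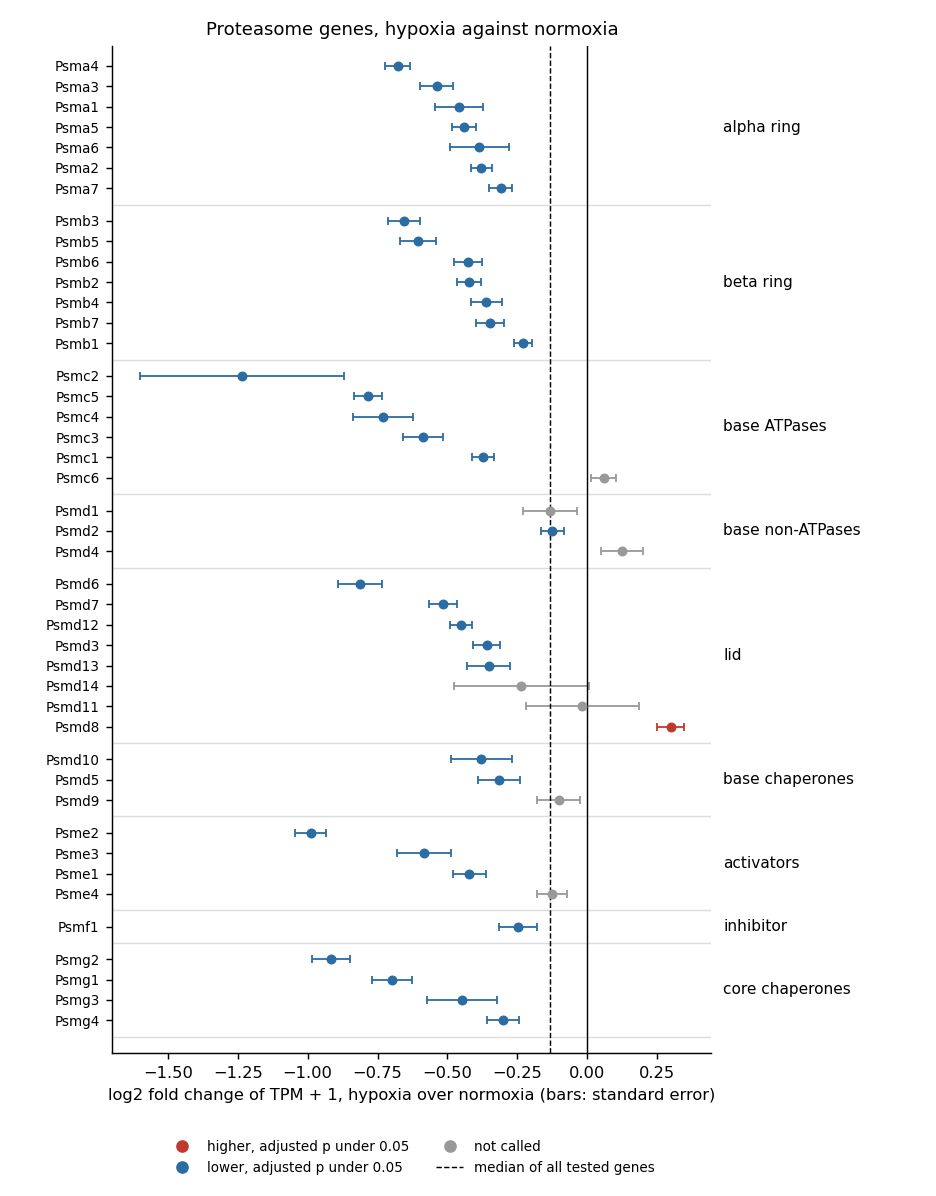
Log2 fold change of TPM + 1 (hypoxia over normoxia, x axis) of the 43 tested proteasome genes, by class, with standard errors as bars (limma, 3 libraries per group). Blue points (35) passed the test as lower, the red point (Psmd8) as higher and the 7 grey points did not pass. The dashed line is the median of all 13749 tested genes, -0.13. Among the blue points Psmd2, at -0.13, is the only member that changed sign with another scaling (0.02 with median-ratio scaling).

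The core particle fell as a whole. All 14 tested core members were lower in hypoxia-treated cells, 7 of 7 in the alpha ring and 7 of 7 in the beta ring, with a median log2 fold change of -0.42 and a range from -0.68 to -0.23. Summed over the 16 core genes, the level was 2417, 2370.2 and 2396 TPM in the hypoxia-treated libraries, against 3239, 3191 and 3207 TPM in the normoxic libraries, a ratio of the means of 0.745. Both rings shared in this to a similar extent: the alpha ring sum was 839 ± 8.52 TPM in hypoxia-treated cells and 1146 ± 36.0 TPM in normoxic cells, and the beta ring sum was 1555 ± 30.8 TPM in hypoxia-treated cells and 2066 ± 18.0 TPM in normoxic cells (SD, n = 3 each).

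In the alpha ring, Psma4 (ENSMUSG00000032301, mm10 chr9:54950790-54958030) fell the most of the 7 tested subunits. Its level was 114, 122 and 122 TPM in hypoxia-treated cells, against 194, 195 and 186 TPM in normoxic cells. The groups were far apart, and limma gave a log2 fold change of -0.68 (SE 0.045, adjusted p = 4.41e-05). Psma5, another structural subunit of this ring, had 102, 98.3 and 99.6 TPM in hypoxia-treated cells, against 140.2, 137 and 131 TPM in normoxic cells, again without overlap (-0.44, SE 0.043, adjusted p = 0.000232). Psma1, Psma2 and Psma3 were also lower, with log2 fold changes of -0.46, -0.38 and -0.54. Psma6, at -0.39, was the least firmly called subunit of the core particle (adjusted p = 0.0191). It lost the call without hypoxia replicate 1 (adjusted p = 0.0578), without hypoxia replicate 3 (0.0537), without normoxia replicate 1 (0.0591) and with median-ratio scaling (0.0993). Psma6 also lost it without a filter on low values (0.148) and on assembled loci. The subunits of this ring are built in equal numbers, but their mRNA levels per length spread widely, with means from 34.3 (Psma3) to 179.5 TPM (Psma2) in hypoxia-treated cells and from 50.3 (Psma3) to 236 TPM (Psma1) in normoxic cells.

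Psma7 and Psma8 occupy the same place of the alpha ring. Psma7 is the general form, and Psma8 replaces it in spermatocytes. Psma7 had 139, 134 and 139 TPM in hypoxia-treated cells, against 176, 167 and 169 TPM in normoxic cells. All hypoxic values lay below the normoxic ones, with a log2 fold change of -0.31 (SE 0.04, adjusted p = 0.00078). Psma8 was listed at 0 in all 6 libraries and was not tested. The other tissue variant of the core, the thymus subunit Psmb11, was listed at 0 in the hypoxia-treated libraries and did not exceed 0.0029 TPM in normoxic cells.

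The beta ring holds the proteolytic subunits Psmb5 (chymotrypsin-like), Psmb6 (caspase-like) and Psmb7 (trypsin-like). All 3 fell. Psmb5 (ENSMUSG00000022193, mm10 chr14:54614120-54617995) had 125, 106 and 119 TPM in hypoxia-treated cells, against 181, 178 and 173 TPM in normoxic cells. The highest hypoxic value was below the lowest normoxic value, and the log2 fold change was -0.60 (SE 0.064, adjusted p = 0.000321). Psmb6 (ENSMUSG00000018286, mm10 chr11:70525367-70527858) had 249.8, 225 and 238 TPM in hypoxia-treated cells, against 331, 307 and 319 TPM in normoxic cells. Here too the groups were separate (-0.43, SE 0.051, adjusted p = 0.000555). Psmb7 had 215, 212 and 213 TPM in hypoxia-treated cells, against 271, 289 and 255 TPM in normoxic cells. The hypoxia-treated libraries lay close together, all below the normoxic libraries (-0.35, SE 0.051, adjusted p = 0.00132).

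Among the structural beta subunits, Psmb3 changed most. It had 236, 229.8 and 206 TPM in hypoxia-treated cells, against 344, 357 and 356 TPM in normoxic cells. No value was shared between the groups, and the log2 fold change was -0.65 (SE 0.057, adjusted p = 0.000138). Psmb2 had 133, 137 and 144 TPM in hypoxia-treated cells, against 186, 182 and 188 TPM in normoxic cells. Its groups were equally distinct (-0.42, SE 0.044, adjusted p = 0.000281). Psmb4 was lower as well (-0.36). Psmb1, the most abundant core mRNA with 394 ± 7.03 TPM in hypoxia-treated cells and 463 ± 3.69 TPM in normoxic cells (SD, n = 3 each), had the smallest change of the core, -0.23 (adjusted p = 0.00105). With median-ratio scaling Psmb1 was not called (-0.085, adjusted p = 0.115).

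**Figure D2:**
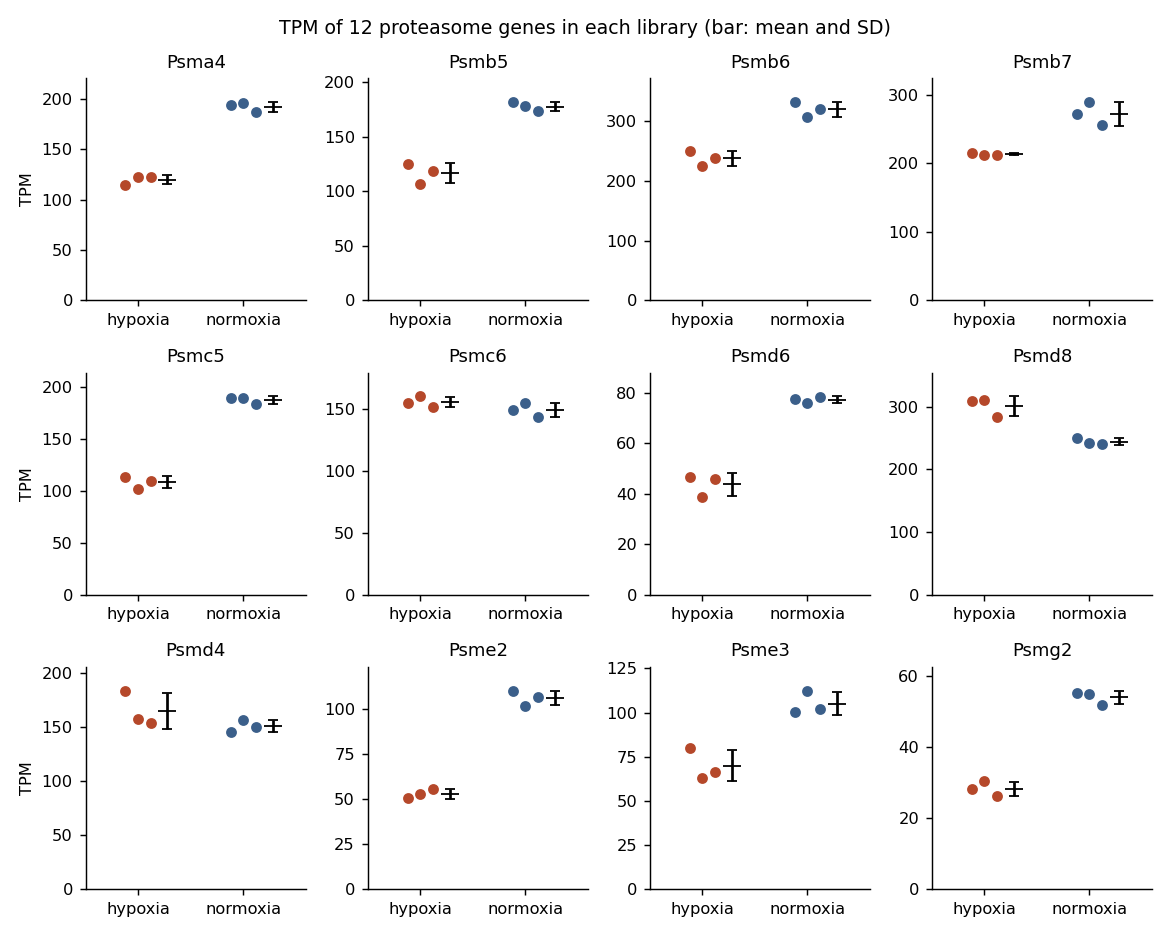
TPM (y axis, starting at 0) of 12 proteasome genes in each library, 3 hypoxia-treated libraries on the left of each panel and 3 normoxic libraries on the right, with the mean and SD as a bar. Psma4, Psmb5, Psmb6, Psmb7, Psmc5, Psmd6, Psme2, Psme3 and Psmg2 were lower in every hypoxia-treated library than in any normoxic library. Psmd8 was higher in each of them, and the groups of Psmc6 and Psmd4 overlapped.

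The start regions of the proteolytic subunits Psmb5 and Psmb6 and of Psmc6 are shown for the antioxidant response element (ARE). The ARE is the best known control motif of mammalian proteasome genes, bound by Nfe2l1 and Nfe2l2. RefSeq windows of 300 bases (250 before and 50 after each start, build GRCm38.p6) were matched for 37 of the 45 members, and Psma8, Psmb1, Psmb2, Psmb7, Psmc3, Psmd3, Psmd7 and Psmg2 were not matched. The letters TGACNNNGC were searched on both strands. Capitals mark the match, and lower case gives the bases around it, 5′ to 3′ on the strand of the gene. The Psmb5 match begins 47 bases before the start (chr14:54618014-54618062, minus strand) and the Psmb6 match 9 bases before it (chr11:70525328-70525356, plus strand). That of the base ATPase gene Psmc6, which did not fall, lies as a reverse complement 227 bases before the start (chr14:45329577-45329625, plus strand).
Psmb5: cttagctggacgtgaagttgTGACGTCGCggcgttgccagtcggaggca
Psmb6: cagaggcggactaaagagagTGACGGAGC
Psmc6: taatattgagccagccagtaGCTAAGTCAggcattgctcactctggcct

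The letters TGACNNNGC occurred in the windows of 6 of the 37 matched members (Psmb5, Psmb6, Psmc6, Psmd9, Psmd12 and Psme4), which is 16.2%, against 14.0% of 27025 genes with a window. By group these were 2 of 12 core, 2 of 14 cap and 2 of 11 regulator genes. The letters ACGTG, the core of the hypoxia response element, were present in 7 members (18.9%), against 21.8% of all genes. Psmb5 carries them 58 bases before the start, without sharing a base with its TGACNNNGC match. CCAAT was present in 13 members (35.1%), against 41.1% of all genes. The core of the interferon response element (GAAA, a gap of 2 bases and GAAA again) was present in 5 members (13.5%: Psmb3, Psmd4, Psmd9, Psme1 and Psmg4), against 3.99% of all genes. These are matches of letters in short windows, and neither their presence nor their absence was tested against the levels.

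The cap was uneven. Of its 17 members 11 were lower, 1 was higher and 5 did not pass the test, with a median log2 fold change of -0.36 and a range from -1.24 to 0.30. The summed level was 1918, 1973 and 1987 TPM in the hypoxia-treated libraries, against 2395, 2348 and 2375 TPM in the normoxic libraries, a ratio of 0.826. By class, the ratio of the summed means was 0.687 for the base ATPases, 0.877 for the lid and 0.973 for the base subunits that are not ATPases. The number of core transcripts per cap transcript was lower in hypoxia-treated cells, at 1.26, 1.20 and 1.21, against 1.352, 1.359 and 1.351 in normoxic cells. The groups did not overlap, and the mean ratio in hypoxia-treated cells was 0.903 of that in normoxic cells. Without the most abundant core and cap member this quotient was 0.934. The cap sum holds Psm symbols only, without the lid component Sem1 and the ubiquitin receptor Adrm1. In hypoxia replicate 1 it includes Psmc2 at 32.4 TPM, where the locus built there from the reads had 107.9 TPM.

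**Figure D3:**
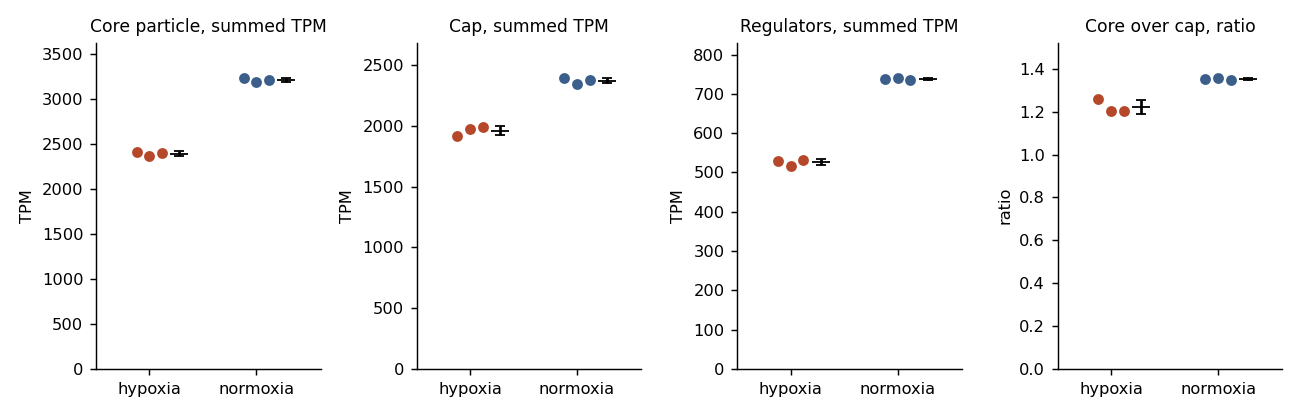
Summed TPM of the core particle, the cap and the regulators, and the ratio of core over cap (y axes, each starting at 0), in 3 hypoxia-treated libraries (left) and 3 normoxic libraries (right), with mean and SD. The core sum was 2394 TPM in hypoxia-treated cells and 3212 TPM in normoxic cells on average, and in all 4 panels the hypoxia-treated libraries lie below the normoxic ones.

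The base ATPases form the ring that unfolds substrates and threads them into the core. Of the 6, 5 were lower in hypoxia-treated cells. Psmc5 (ENSMUSG00000020708, mm10 chr11:106256154-106263120) had 113, 102 and 109.8 TPM in hypoxia-treated cells, against 189, 189.5 and 183 TPM in normoxic cells. The groups were far from overlapping, and the log2 fold change was -0.79 (SE 0.05, adjusted p = 3.88e-05). Psmc1 had 112, 115 and 116 TPM in hypoxia-treated cells, against 149.6, 149.6 and 144 TPM in normoxic cells. Its change was smaller but as well separated (-0.37, SE 0.039, adjusted p = 0.000309). On assembled loci (the loci that StringTie built from the reads) Psmc5 was not called (adjusted p = 0.217), where the locus found at Psmc5 in hypoxia replicate 3 had 3.81 TPM. Psmc3 and Psmc4 were lower, with log2 fold changes of -0.59 and -0.73.

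Psmc6 (ENSMUSG00000021832, mm10 chr14:45329824-45349071), an ATPase of the same ring, stayed at a similar level, with 155, 160.0 and 152 TPM in hypoxia-treated cells, against 149, 155 and 144 TPM in normoxic cells. The groups overlapped, and the log2 fold change of 0.06 (SE 0.045) did not pass the test (adjusted p = 0.293). With median-ratio scaling it was called higher (0.21, adjusted p = 0.0142). The start of Psmc6 lies 11252 bases from that of Ero1l, a hypoxia-induced oxidase of the endoplasmic reticulum on the other strand. Ero1l averaged 603 TPM in hypoxia-treated cells and 45.5 TPM in normoxic cells, and its log2 fold change of 3.70 was the highest of all tested genes. Whether this neighbour has a part in the Psmc6 level was not tested.

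Psmc2 had the lowest fold change of all members and the widest spread. Its level was 32.4, 85.4 and 91.2 TPM in hypoxia-treated cells, against 149, 147 and 156 TPM in normoxic cells. The groups did not overlap, but hypoxia replicate 1 lay far below the other hypoxia-treated libraries, and the log2 fold change of -1.24 had an SE of 0.36 (adjusted p = 0.0257). Without hypoxia replicate 1 the value was -0.76 (adjusted p = 0.000292). Without normoxia replicates 1, 2 and 3 in turn the call was lost (adjusted p = 0.0634, 0.06 and 0.0643). Without a filter on low values it was lost too (0.206). Loci as assembled from the reads have TPM values of their own, and in hypoxia replicate 1 the locus at Psmc2 had 107.9 TPM. The TPM of the annotated gene was 30.1% of that value. In the other 5 libraries it was 100% of the locus value. Measured on assembled loci, Psmc2 was lower (-0.67, adjusted p = 0.0043).

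**Figure D4:**
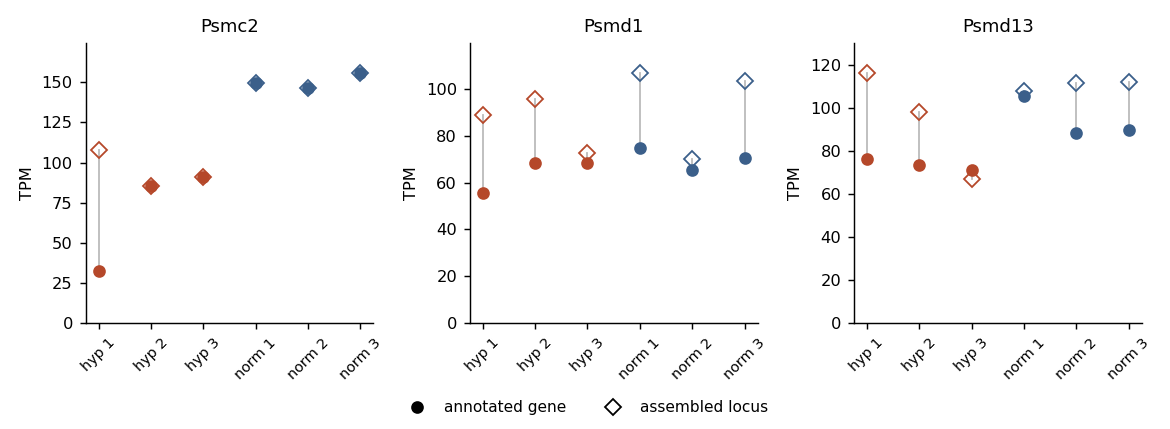
TPM (y axis, starting at 0) of the annotated gene (filled circles) and of the locus assembled from the reads (open diamonds) in each library. The panels are Psmc2, Psmd1 and Psmd13 (hyp, hypoxia-treated, and norm, normoxic). At Psmc2 the marks differ only in hypoxia replicate 1, with 32.4 TPM for the gene and 107.9 TPM for the locus.

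The 3 base subunits that are not ATPases had log2 fold changes between -0.13 and 0.13. Psmd2, a scaffold on which ubiquitin shuttle proteins dock, had 224, 223 and 229 TPM in hypoxia-treated cells, against 257, 238 and 244 TPM in normoxic cells. The groups were separate by a small gap, and the log2 fold change of -0.13 (SE 0.041, adjusted p = 0.0392) equalled the median of all genes to 2 decimals. It had the opposite sign with median-ratio scaling (0.021). The call was lost without hypoxia replicates 1, 2 or 3 (adjusted p = 0.0905, 0.101 and 0.0543) and without normoxia replicates 1 or 3 (0.114 and 0.0769). So it was without a filter on low values (0.0976), without the variance trend, with the replicate block and on assembled loci. Psmd1, the other scaffold, had 55.5, 68.5 and 68.2 TPM in hypoxia-treated cells, against 74.9, 65.3 and 70.3 TPM in normoxic cells. Its groups overlapped (-0.13, adjusted p = 0.278). In 4 of the 6 libraries the TPM of the gene was between 62.5% and 71.5% of that of its assembled locus. Psmd4, the ubiquitin receptor of the base, had 183, 158 and 153 TPM in hypoxia-treated cells, against 145, 156 and 149.8 TPM in normoxic cells. Its groups overlapped slightly, through hypoxia replicate 3 and normoxia replicate 2 (0.13, adjusted p = 0.193). With median-ratio scaling the log2 fold change was 0.27 with an adjusted p of 0.0369.

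The lid was the class with calls in both directions. Of its 8 members, 5 were lower, Psmd8 was higher and Psmd11 and Psmd14 did not pass the test. Psmd6 (ENSMUSG00000021737, mm10 chr14:14112184-14120984), a structural subunit, had 46.6, 38.6 and 45.8 TPM in hypoxia-treated cells, against 77.3, 75.7 and 78.4 TPM in normoxic cells. The hypoxic values were well below the normoxic ones (-0.81, SE 0.078, adjusted p = 0.000204). Psmd12, also structural, had 109, 104 and 106 TPM in hypoxia-treated cells, against 148, 145 and 145 TPM in normoxic cells. Both groups were narrow and separate (-0.45, SE 0.039, adjusted p = 0.00014). Psmd3, Psmd7 and Psmd13 were lower, with log2 fold changes of -0.36, -0.52 and -0.35. The call of Psmd13 was lost on assembled loci (adjusted p = 0.344), with median-ratio scaling (0.0544) and without a filter on low values (0.0606). In 4 of the 6 libraries the TPM of the gene was between 65.7% and 80.1% of that of its assembled locus. It was 105.7% in hypoxia replicate 3 and 97.8% in normoxia replicate 1.

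Psmd8 (ENSMUSG00000030591, mm10 chr7:29174188-29180701), the lid subunit that joins last in yeast, moved against the rest. It had 308, 311 and 283 TPM in hypoxia-treated cells, against 250.3, 242 and 239.7 TPM in normoxic cells. Every hypoxia-treated library was above every normoxic library. The means were 301 ± 15.5 TPM in hypoxia-treated cells and 244 ± 5.64 TPM in normoxic cells (SD, n = 3 each), a ratio of 1.23, and the log2 fold change was 0.30 (SE 0.048, adjusted p = 0.00198). It was called higher in all 17 alternatives tried, with log2 fold changes from 0.25 to 0.45. In the alternative on assembled loci, however, a locus was found at Psmd8 in only 3 libraries (282.8 TPM in hypoxia replicate 3, against 250.3 and 241.9 TPM in normoxia replicates 1 and 2), and the annotated value stood in for the other 3. In hypoxia-treated cells Psmd8 was the most abundant cap mRNA, whereas in normoxic cells its mean of 244 TPM and that of Psmd2, 246 TPM, were within their SDs of each other.

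Psmd14, the deubiquitinase of the lid, had 59.5, 57.6 and 77.7 TPM in hypoxia-treated cells, against 51.6, 84.9 and 99.5 TPM in normoxic cells. The groups overlapped through the low value of normoxia replicate 1 (-0.24, SE 0.24, adjusted p = 0.445). Without that library the log2 fold change was -0.51 with an adjusted p of 0.0338. Psmd11, which clamps the lid to the core, had 59.0, 99.6 and 98.8 TPM in hypoxia-treated cells, against 92.2, 76.2 and 85.9 TPM in normoxic cells. Hypoxia replicate 1 was the lowest and the other hypoxia-treated libraries the highest, so that the log2 fold change was -0.018 (SE 0.20, adjusted p = 0.948) while the mean TPM was 85.8 in hypoxia-treated cells and 84.7 in normoxic cells. Without hypoxia replicate 1 it was 0.23 (adjusted p = 0.0731). Its sign also turned without normoxia replicate 1 (0.044), after quantile normalization (0.056) and with median-ratio scaling (0.13).

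The regulators fell in 10 of 12 cases, with a median log2 fold change of -0.40 and a range from -0.99 to -0.10. Their summed level was 530.5, 517 and 532 TPM in the hypoxia-treated libraries, against 739, 741 and 734 TPM in the normoxic libraries, a ratio of 0.713. The 4 chaperones of core assembly were all lower, as were 3 of the 4 activators, 2 of the 3 base chaperones and the inhibitor Psmf1.

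The activators open the gate of the core without ATP. Psme1 and Psme2 form the cytosolic activator that is known for its role in antigen processing. Psme2 (ENSMUSG00000079197, mm10 chr14:55587441-55591113) had 50.1, 52.7 and 55.7 TPM in hypoxia-treated cells, against 109, 101 and 107 TPM in normoxic cells. The ranges were far apart, with a ratio of the means of 0.499 and a log2 fold change of -0.99 (SE 0.056, adjusted p = 2.52e-05), the lowest adjusted p of all members. Its partner Psme1 had 102, 92.0 and 90.7 TPM in hypoxia-treated cells, against 122, 131 and 129 TPM in normoxic cells. The change was smaller and the groups did not overlap (-0.42, SE 0.06, adjusted p = 0.00114). The mouse gene Psme2b (chr11:48945354-48946190), a near copy of Psme2 that is not a member, averaged 15.5 TPM in hypoxia-treated cells and 37.4 TPM in normoxic cells. How the quantification split reads between Psme2 and Psme2b is not given in the sources used here, which makes both levels uncertain.

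Psme3, the nuclear activator, had 80.1, 63.1 and 66.5 TPM in hypoxia-treated cells, against 100.2, 112 and 102 TPM in normoxic cells. These values did not overlap (-0.58, SE 0.096, adjusted p = 0.00218). Psme4, a nuclear activator needed in mice for normal sperm formation, had 71.0, 70.8 and 76.0 TPM in hypoxia-treated cells, against 83.1, 75.9 and 79.0 TPM in normoxic cells. The groups overlapped slightly, through hypoxia replicate 3 and normoxia replicate 2, and the log2 fold change of -0.13 (SE 0.054) did not pass the test (adjusted p = 0.0896). It was called lower on FPKM (adjusted p = 0.0139) and without mitochondrially encoded genes (0.0271), and its sign turned with median-ratio scaling (0.018).

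The chaperones Psmg1 and Psmg2 form a pair that assembles the alpha ring, and Psmg3 and Psmg4 form a second pair that acts on the same ring. Psmg2 (ENSMUSG00000024537, mm10 chr18:67641599-67654162) had 28.1, 30.4 and 26.2 TPM in hypoxia-treated cells, against 55.2, 55.1 and 52.0 TPM in normoxic cells. This separation gave a ratio of the means of 0.522 and a log2 fold change of -0.92 (SE 0.067, adjusted p = 6.64e-05). Psmg1 had 21.0, 20.6 and 21.5 TPM in hypoxia-treated cells, against 35.1, 31.9 and 37.5 TPM in normoxic cells. The groups were distinct (-0.70, SE 0.071, adjusted p = 0.000266). On assembled loci Psmg1 was not called (-0.30, adjusted p = 0.515). There the locus of hypoxia replicate 2 had 48.2 TPM, and the TPM of the gene was 42.7% of that value. Psmg3 and Psmg4 were lower, with log2 fold changes of -0.45 and -0.30. The call of Psmg3, which averaged 11.1 TPM in hypoxia-treated cells and 15.5 TPM in normoxic cells, was lost without hypoxia replicate 2 (adjusted p = 0.0546) and without normoxia replicates 1 or 2 (0.067 and 0.0654), and with median-ratio scaling (0.0753). This call was also lost without a filter on low values (0.130) and after quantile normalization.

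The base chaperones bind the ATPases before the base is complete. Psmd5, an ARM-repeat protein among them, had 63.4, 62.8 and 74.96 TPM in hypoxia-treated cells, against 84.0, 82.1 and 84.0 TPM in normoxic cells. No values overlapped (-0.31, SE 0.074, adjusted p = 0.0104). The call was lost with median-ratio scaling (adjusted p = 0.059), on assembled loci (0.0519) and without a filter on low values (0.0754). Psmd10, known as the oncoprotein gankyrin, had 19.0, 24.7 and 20.2 TPM in hypoxia-treated cells, against 30.6, 26.6 and 26.4 TPM in normoxic cells. Its groups were separate (-0.38, SE 0.11, adjusted p = 0.0245), but the call was lost without hypoxia replicates 1 or 3 (adjusted p = 0.0718 and 0.0705), without normoxia replicate 1 (0.0767) and with median-ratio scaling (0.104). The same happened without a filter on low values (0.153), after quantile normalization, with the replicate block and on assembled loci. Psmd9, the remaining base chaperone, averaged 18.2 ± 0.512 TPM in hypoxia-treated cells and 19.6 ± 1.67 TPM in normoxic cells (SD, n = 3 each) and was not called (-0.10, adjusted p = 0.303). Its sign turned with median-ratio scaling (0.038) and after quantile normalization (0.081).

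Psmf1, which inhibits the core in vitro, was the least abundant tested member. It had 10.9, 10.9 and 10.4 TPM in hypoxia-treated cells, against 13.3, 13.1 and 12.3 TPM in normoxic cells. The groups were close but separate (-0.25, SE 0.068, adjusted p = 0.0199). Its call was lost without hypoxia replicate 3 (adjusted p = 0.0526) and without normoxia replicates 1 or 2 (0.0652 and 0.0571). With median-ratio scaling its log2 fold change was -0.11 (adjusted p = 0.215), and after quantile normalization it was -0.038 (0.667).

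The members lie on 16 chromosomes. For 8 tested members, each lower, the nearest tested protein-coding neighbour lies on the opposite strand and starts within 1000 bases. Of these 8 neighbours 4 were lower, 1 was higher and 3 did not pass the test. Over all tested genes 36.1% were lower and 17.9% were higher, and over the protein-coding ones 40.0% and 17.8%. Whether such neighbours change together was not tested. Psmc2 and Dnajc2, a ribosome-bound chaperone gene, start 32 bases apart, and both were lower (-1.24 and -0.49). Psmc5 and Ftsj3, a ribosome biogenesis gene, start 75 bases apart, and both were lower (-0.79 and -1.32). By contrast, Psma7 and Ss18l1 start 76 bases apart, and Psma7 was lower while Ss18l1 was higher (-0.31 and 0.95). Psmg2 and Cep76, a centrosomal gene, start 263 bases apart and were both lower (-0.92 and -0.35), as were Psmd10 and Atg4a, 179 bases apart (-0.38 and -0.56). The neighbours that did not pass were Mrpl32, 205 bases from Psma2 (0.032), Sirt3, 341 bases from Psmd13 (0.028), and Rnf31, 595 bases from Psme2 (0.21, adjusted p = 0.0582). Exons of 7 members overlap those of another gene with a mean of at least 1 TPM (Psmb5 with Mir686, Psmb7 with Nek6, Psmc3 with Slc39a13, Psmd1 with Gm21972, Psmd13 with Sirt3, Psme1 with Emc9 and Psmg3 with Gm26938). Use of the strand in counting is not given in the sources used here, so reads of the 4 pairs on opposite strands may not be told apart. The pairs of Psmb5, Psmd1 and Psmg3 lie on the same strand, where strand could not separate them.

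Proteasome partners without a constitutive Psm name were listed alongside, 28 genes in all. Of these, 13 were lower, 4 were higher and 11 did not pass the test, with a median log2 fold change of -0.21, against -0.13 over all tested genes. As a share of the list 46.4% were lower and 14.3% higher, against 36.1% and 17.9% of all tested genes. Median-ratio scaling left 7 partners lower and 5 higher, against 26.3% and 26.2% of all genes. Quantile normalization left 9 lower and 4 higher, against 26.5% and 26.0% of all genes, and assembled loci 8 and 2, against 27.5% and 13.8%. Among the proteins bound to the proteasome, the ubiquitin receptor Adrm1 was lower (41.2 TPM in hypoxia-treated cells and 59.5 TPM in normoxic cells, -0.52, adjusted p = 0.00244), but not called on assembled loci (adjusted p = 0.204). The lid component Sem1, the core maturation factor Pomp, the ubiquitin ligase Ube3c and the proteasome-stimulating Zfand5 were lower too (-0.24, -0.31, -0.28 and -0.69), although Sem1 and Ube3c were not called with median-ratio scaling. Ecpas, a large protein that tethers the cap to the core, was higher, with 60.9 ± 3.26 TPM in hypoxia-treated cells and 49.0 ± 1.16 TPM in normoxic cells (SD, n = 3 each, 0.31, adjusted p = 0.00318, or 0.109 on assembled loci). So was Txnl1, a thioredoxin bound to the cap, with 156 ± 4.10 TPM in hypoxia-treated cells and 128 ± 3.57 TPM in normoxic cells (SD, n = 3 each, 0.28, adjusted p = 0.00153). The deubiquitinases Uchl5 and Usp14 and the nuclear import factor Akirin2 were not called with TPM as deposited. Uchl5 (-0.21, adjusted p = 0.0521) was called lower on FPKM (0.0242), on assembled loci (0.0454) and with a minimum of 5 TPM (0.0478). It was also called without mitochondrially encoded genes (0.026) and without hypoxia replicate 3 (0.018). Usp14 was called lower on FPKM (0.0424) and without hypoxia replicate 2 (0.0471). The remaining alternatives called neither.

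Nfe2l1 and Nfe2l2, transcription factors known to raise proteasome genes in mammals, passed the test as lower, Nfe2l2 more firmly than Nfe2l1. Nfe2l1, which raises proteasome transcription when proteasome activity is short, had 236, 211 and 223 TPM in hypoxia-treated cells, against 286, 239.7 and 271 TPM in normoxic cells. Its highest hypoxic value was just below its lowest normoxic value (-0.25, SE 0.074, adjusted p = 0.028). The call was lost with median-ratio scaling (-0.1, adjusted p = 0.279), without a filter on low values (0.175), without the variance trend (0.0536) and on assembled loci (0.115). It was also lost without hypoxia replicates 2 or 3 (0.0852 and 0.0666) and without normoxia replicates 1 or 3 (0.0813 and 0.0766). Nfe2l2, the factor of the oxidative stress response, had 44.4, 53.1 and 51.1 TPM in hypoxia-treated cells, against 68.1, 84.1 and 90.3 TPM in normoxic cells. The groups were separate (-0.69, SE 0.12, adjusted p = 0.00252). Vcp, the ATPase that draws the Nfe2l1 protein and other substrates out of the endoplasmic reticulum, averaged 210.4 ± 38.1 TPM in hypoxia-treated cells and 339 ± 16.8 TPM in normoxic cells (SD, n = 3 each, -0.70, adjusted p = 0.00346, or 0.395 on assembled loci). Ddi2 and Ngly1, which process the Nfe2l1 protein, and the Vcp cofactors Nploc4 and Ufd1 were not called with TPM as deposited. Ddi2 was called higher after quantile normalization (0.17, adjusted p = 0.0413).

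Ubb, a ubiquitin gene, was higher, with 1105, 1201 and 1119 TPM in hypoxia-treated cells, against 959, 986 and 975 TPM in normoxic cells. The groups did not overlap (0.23, SE 0.04, adjusted p = 0.00303), but after quantile normalization the log2 fold change was 0.039 (adjusted p = 0.538) and on assembled loci it was -0.059 (0.789). Rps27a, which encodes ubiquitin fused to a ribosomal protein, was not called (-0.15, adjusted p = 0.627). The ubiquitin-activating enzymes differed in sign: Uba6 was higher (30.2 TPM in hypoxia-treated cells and 23.6 TPM in normoxic cells, 0.35) and Uba1 was lower (136 TPM in hypoxia-treated cells and 158 TPM in normoxic cells, -0.22, not called with median-ratio scaling). Of the shuttle proteins that carry ubiquitylated substrates to the cap, Ubqln2 and Ubqln4 were lower (-0.14 and -0.33). Neither was called under median-ratio scaling, where Ubqln2 turned sign (0.007), or after quantile normalization (adjusted p = 0.475 and 0.0936). Both also lost the call without a filter on low values (0.065 and 0.157) and on assembled loci (0.0607 and 0.0554). Ubqln2 further lost it without the variance trend (0.0757), with the replicate block (0.0723) and without any 1 library other than hypoxia replicate 3. Ubqln4 lost it without hypoxia replicates 1, 2 or 3 (0.0564, 0.0711 and 0.055). Rad23b and Ubqln1 were not called with TPM as deposited (Ubqln1 was called higher with median-ratio scaling, 0.13, adjusted p = 0.0402).

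**Figure D5:**
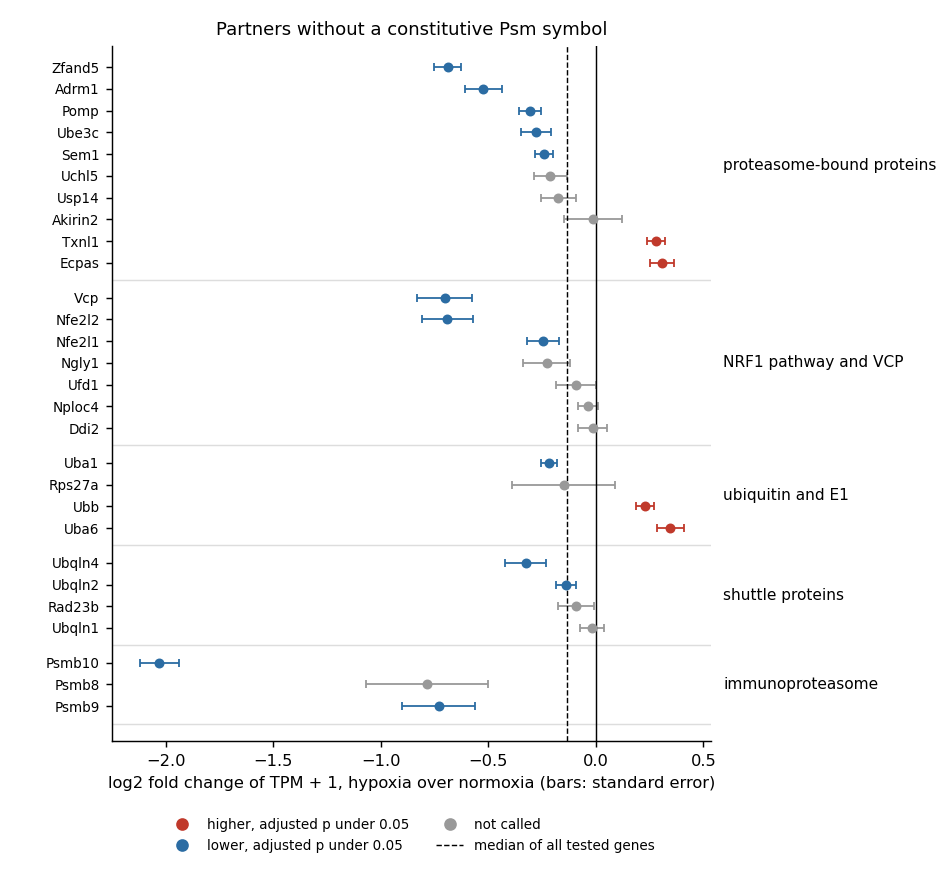
Log2 fold change of TPM + 1 (hypoxia over normoxia, x axis) of the 28 partner genes, by group, with standard errors as bars (limma, 3 libraries per group). Blue points (13) passed the test as lower, red points (4) as higher and grey points (11) did not pass. Psmb10 lies farthest to the left, at -2.03, and Uba6 farthest to the right, at 0.35. Ubb, red here, was not called after quantile normalization, and the sign of Ubqln2 turned with median-ratio scaling.

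The immunoproteasome subunits replace Psmb5, Psmb6 and Psmb7 in cells exposed to interferon and in immune cells. Psmb10, the counterpart of Psmb7, had 4.98, 6.26 and 5.14 TPM in hypoxia-treated cells, against 25.1, 25.4 and 25.3 TPM in normoxic cells. The hypoxic level was 0.216 of the normoxic level and the groups were far apart (-2.03, SE 0.091, adjusted p = 1.11e-05). Psmb9, the counterpart of Psmb6, was lower from a low level (4.16 TPM in hypoxia-treated cells and 7.61 TPM in normoxic cells, -0.73, adjusted p = 0.00993, or 0.0503 after quantile normalization and 0.801 on assembled loci). Psmb8, the counterpart of Psmb5, had 25.03, 13.2 and 27.2 TPM in hypoxia-treated cells, against 39.2, 28.3 and 44.5 TPM in normoxic cells. Its libraries spread widely but did not overlap between groups, and it did not pass the test (-0.79, SE 0.28, adjusted p = 0.0524). It was called lower with a pseudocount of 5 (adjusted p = 0.0487), a minimum of 5 TPM (0.0489), FPKM (0.0402) and without mitochondrially encoded genes (0.0452). The same held on assembled loci (0.0106), without hypoxia replicate 3 (0.0404), without normoxia replicate 2 (0.0408) and with the replicate number as a block (0.00391). The remaining alternatives did not call it. The constitutive subunits remained more abundant than these counterparts in both groups, as the levels per length show: Psmb5 stood at 117 and Psmb8 at 21.8 TPM in hypoxia-treated cells, and at 178 and 37.3 TPM in normoxic cells.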

How the data were processed

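Poly(A) RNA of 6 GC-2spd libraries (3 hypoxia, 3 normoxia) was analysed. The authors used Cutadapt as read filter, HISAT2 as aligner against mm10 and StringTie for quantification (versions not given in the sources used here). The deposited coverage, a signal, gives each gene's mean depth and served only for the aligned bases. The deposited FPKM is scaled for length and aligned fragments, and the deposited TPM for length and library. The TPM column has rows for annotated genes and further rows for loci built from the reads by assembly. The annotated genes alone were used, without rescaling, and their TPM sum was 948284 to 977044 in hypoxia-treated cells and 972522 to 981418 in normoxic cells. The authors tested counts with edgeR. Counts are not used here, so that no counting interval was calculated, and 3 libraries per group limit the precision.

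Of 43432 gene IDs, 42462 matched a GENCODE mouse symbol, and summing 20 symbols with several IDs left 43412 genes. The test covered 13749 genes whose TPM averaged 1 or more, and limma 3.58.1 in R 4.3.3 was fitted to log2(TPM + 1) (variance trend, 2-sided, Benjamini-Hochberg over all tested genes, threshold 0.05). The fit was checked on simulated data. At an unadjusted p under 0.05, 5472 genes were lower and 2741 higher. An exact permutation test of 3 against 3 cannot go below 0.1 and was not used. Fold changes are on the log2(TPM + 1) scale, which understates the change of low genes, and errors are SD or SE as named.

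Members, lists and tests were chosen with earlier results of these data known. Values of every library are given for up to 2 members per class and direction with the smallest adjusted p, for called members that go against their class, for proteolytic subunits, tissue variants and activators. Psmc2, Psmc6, Psmd1, Psmd4, Psmd11 and Psmd14, and the partners with values per library, were added to this rule after their values were seen. Some genes of the partner list are not reported here. Promoter windows are from RefSeq, GRCm38.p6, and positions of genes are as in the authors' files. The alternatives were other pseudocounts (0.1 and 5), no filter and a minimum of 5 TPM, FPKM, median-ratio scaling, quantile normalization, removal of mitochondrially encoded genes, no variance trend, the replicate number as a block, assembled loci in place of annotated genes, and each library left out in turn. Where no assembled locus was found in a library, the annotated value was kept there. This applied to 1678 of the 13749 tested genes, among them Psmd8 in 3 libraries, Psmd11 in 2, and Psma4, Nfe2l1 and Ubqln4 in 1.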

Additional observations from a re-analysis of the deposited data

How the results depend on the processing

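The number of lower members was 35 as reported and 27 to 36 over the other settings with all 6 libraries. The lowest value came both without a filter on low values and with median-ratio scaling. Of all genes in each setting, 36.1% were lower as reported, 8.67% without the filter and 26.3% with median-ratio scaling. This share was 27.5% on assembled loci and 40.9% on FPKM. Leaving out 1 library gave 30 to 33 lower members, against 31.4% to 34.8% of all genes. It gave 1 higher member each time, against 15.3% to 16.7% of all genes. With median-ratio scaling 3 members were higher (Psmd8, Psmc6 and Psmd4), against 26.2% of all genes. Of 731 member values over 17 alternatives, 668 kept their direction and their side of the threshold, 48 lost a call, 5 gained one and 10 changed sign. All of the last were members that were not called or, for Psmd2, called at an adjusted p of 0.0392. The 23 members called lower in every setting comprise 11 core, 7 cap and 5 regulator genes. The matching share of all tested genes was not computed, so this count has nothing to be set against. Psma1, Psma6, Psmb1, Psmc2, Psmc5, Psmd2, Psmd5, Psmd10, Psmd13, Psmf1, Psmg1 and Psmg3 were lower as reported but not in every setting.

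The group medians (-0.42 core, -0.36 cap, -0.40 regulators) stayed negative in every setting. They were -0.28, -0.21 and -0.26 with median-ratio scaling, -0.39, -0.33 and -0.24 after quantile normalization, and -0.46, -0.39 and -0.43 without mitochondrially encoded genes. On FPKM the core was at -0.47 and the cap at -0.41, on assembled loci the cap was at -0.30 and the regulators at -0.34, and with a pseudocount of 5 the regulators were at -0.34. Leaving out 1 library gave -0.44 to -0.41 for the core, -0.39 to -0.35 for the cap and -0.41 to -0.37 for the regulators. The quotient of the core over cap ratios, 0.903, was 0.889 to 0.911 without 1 library and 0.934 without the most abundant core and cap member. The cause of these shifts was not tested.

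Signs changed with median-ratio scaling for Psmd1 (0.011), Psmd2 (0.021), Psmd9 (0.038), Psmd11 (0.13) and Psme4 (0.018), after quantile normalization for Psmd9 (0.081) and Psmd11 (0.056), and for Psmd11 on assembled loci (0.0011, with the annotated value kept in 2 libraries that had no locus), without hypoxia replicate 1 (0.23) and without normoxia replicate 1 (0.044). Leaving out 1 library gave Psmd11 values from -0.14 to 0.23. On assembled loci Psmc5 was at -2.30 and not called (adjusted p = 0.217), where the locus found at Psmc5 in hypoxia replicate 3 had 3.81 TPM.

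The deviations of same-numbered libraries correlated at r = 0.026, 0.033 and 0.011 across genes, which are not independent replicates. For libraries with different numbers r ran from -0.054 to 0.026. Such small values cannot show whether or not the numbers pair the samples. With the replicate block 33 members were lower and 1 was higher (Psmd2 and Psmd10 were not called), against 4674 lower and 2281 higher genes in all.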

Other observations

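Psmc3ip carries a Psm prefix but is no proteasome subunit: its product acts in meiotic recombination. It had 26.8, 24.0 and 25.9 TPM in hypoxia-treated cells, against 52.2, 46.1 and 48.7 TPM in normoxic cells. The groups did not overlap (log2 fold change -0.91, limma adjusted p = 7.44e-05). The meiotic genes Dmc1, Spo11 and Sycp1 were under 1 TPM in the same libraries. The pseudogenes Psmb5-ps, Psmb6-ps, Psmb6-ps2 and Psmb7-ps2 were also under 1 TPM in every library.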
